A study of Mus musculus with 6 samples.

Results

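The cytosolic and mitochondrial heat shock genes examined here were 10 genes of the 55487 in the deposited count table: Hspa1a, Hspa1b, Hspa8, Hsp90aa1, Hsp90ab1, Hsph1, Dnajb1, Hspb1, Hspd1 and Hspe1. They were chosen by symbol, as heat shock genes that respond to heat shock factor 1 or are expressed constitutively; the rule uses no measured value, but it was written with earlier results of these data known. Of the 10, 9 passed the filter on low counts and were tested among 14046 genes. Hspa1a did not pass and is described by its counts.

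The data were RNA-seq counts from bulk liver of 6 male wild-type C57BL/6J mice on a normal chow diet, 3 injected subcutaneously with GalNAc-siNC and 3 with GalNAc-siRnf10, with 1 library from each mouse. GalNAc-siNC is a control siRNA and GalNAc-siRnf10 an siRNA against Rnf10, which encodes an E3 ubiquitin ligase. Both are coupled to N-acetylgalactosamine, a sugar taken up by hepatocytes through the asialoglycoprotein receptor. The study ran the comparison to look for unintended effects of the conjugate on gene expression, and no untreated mice were analysed here. All livers were taken at 17 weeks of age, and the labels place all mice in the same batch and give neither dose nor hour of collection.

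Heat shock proteins are molecular chaperones that bind unfolded or partly folded proteins. HSP70 proteins bind and release their substrates with ATP, with J-domain proteins delivering the substrate and HSP110 proteins exchanging the nucleotide. HSP90 acts later, on kinases and nuclear receptors among others, small heat shock proteins hold unfolded proteins without ATP, and HSP60 with its lid HSP10 forms the folding chamber of the mitochondrial matrix. Heat shock factor 1 (HSF1) induces many of these genes by binding heat shock elements, alternating repeats of GAA and its inverse TTC. In liver, chaperones serve a large load of protein synthesis, and several heat shock transcripts follow the daily rhythm of body temperature and feeding.

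Of the 9 tested genes, 4 were called higher after GalNAc-siRnf10, beside 6.71% of all tested genes. Hspa8, Hspa1b, Hsph1 and Dnajb1, which encode the constitutive and an inducible HSP70, an HSP110 and a J-domain partner, rose with log2 fold changes of 0.73 to 0.82. The HSP90 genes Hsp90aa1 and Hsp90ab1 differed from the control level by -3.13% and -3.68%, within the spread between mice, the small heat shock gene Hspb1 did not pass the test, and the mitochondrial pair Hspd1 and Hspe1 lay slightly above the control level without passing it. The count of 4 higher and 0 lower was at an adjusted p under 0.05 in edgeR's quasi-likelihood test, at which 7.28% of all tested genes were called lower and 14.0% in either direction. At an unadjusted p under 0.05 in the same test, 1 more lay above the control level (Hspd1) and 1 lay below it (Hspb1). At that limit 3754 of the 14046 tested genes were called in either direction. DESeq2 also called 0 of the 9 lower. Hspb1 was called lower with voom, without the filter on low counts, without GalNAc-siNC mouse 1 and with a correction for GC content and length. The groups did not overlap in 6 of the 9, each higher after GalNAc-siRnf10, beside 16.5% of all tested genes that were higher without overlap. The median log2 fold change was 0.37 over the 9 and 0.0022 over all tested genes. For a single gene the exact two-sided permutation test of 3 mice against 3 cannot give a p below 0.1, which was its value wherever the groups did not overlap.

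**Figure D1:**
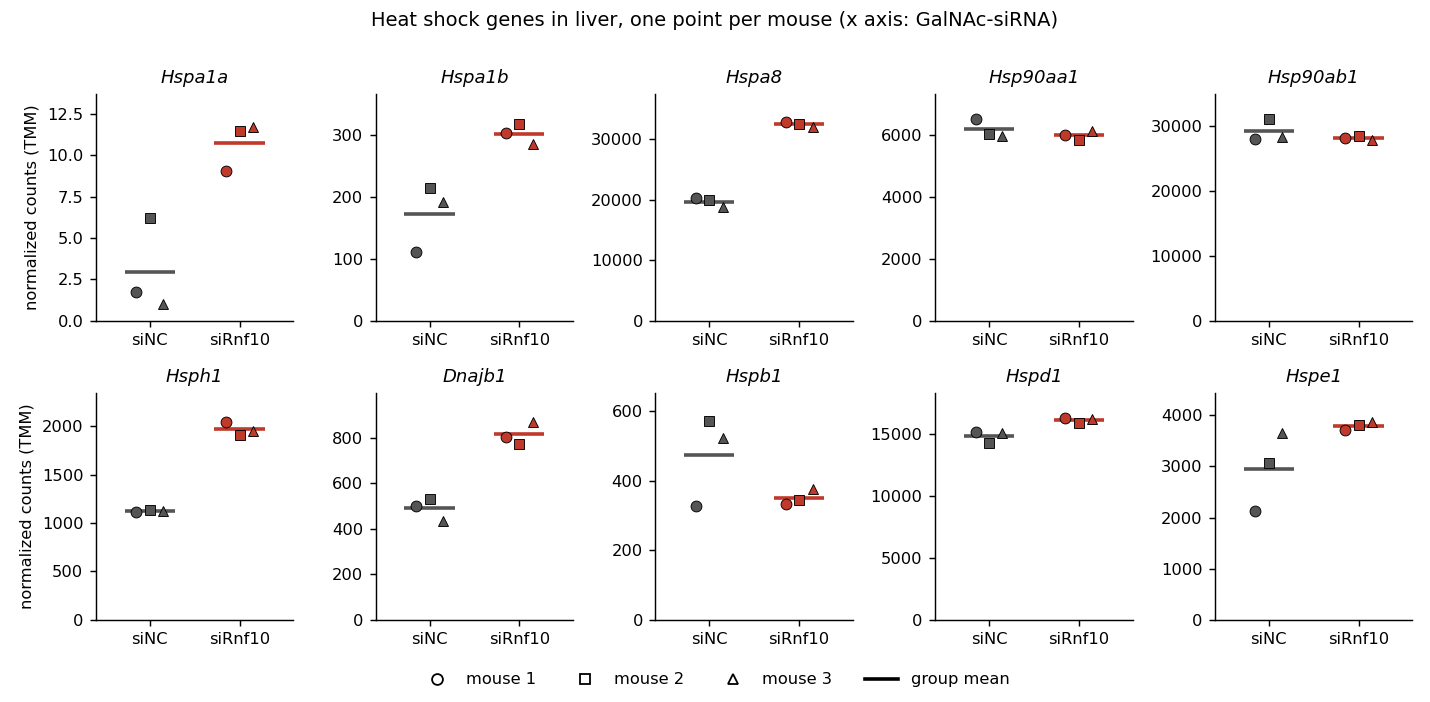
Counts of the 10 heat shock genes (TMM-normalized counts, y axes from 0) in the liver of each mouse, by group; a point is a mouse, its shape the mouse number, and a bar the group mean. The groups are apart in Hspa1a, Hspa1b, Hspa8, Hsph1, Dnajb1, Hspd1 and Hspe1, with Hspa8 at 18716 to 20195 against 31976 to 32762, and they overlap in Hsp90aa1, Hsp90ab1 and Hspb1.

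The libraries held between 26854377 and 33058645 counts, so that 3 counts made up at most 1.12e-05% of any library. Rnf10, the target of the siRNA, was 57.0% lower after GalNAc-siRnf10 (3869, 4536 and 4040 normalized counts against 1738, 1820 and 1793), without overlap between the groups. GalNAc-siNC mouse 1 stood apart by gene length: the 1700 tested genes shorter than 1500 bases had a median log2 deviation of -0.247 there, beside -0.0348 and 0.057 in the other GalNAc-siNC mice and 0.0953 to 0.131 in the GalNAc-siRnf10 mice. Among the heat shock genes this concerns Hspb1 and Hspe1, whose models measure 1031 and 1474 bases, and the values of those genes and of Hspa1b and Hspd1, and the counts of the gene lists that change, are also given without that mouse. The mice are separate animals, and the edgeR p-values set the group difference against the spread between mice, estimated over both groups together. That spread was unequal: the mean chi-square per gene between 2 mice was 10.5 to 31.3 within GalNAc-siNC and 4.74 to 5.44 within GalNAc-siRnf10. Normalized counts are scaled to a mean effective library size of 29670000, and groups are given as mean ± SD of 3 mice. In bulk liver, fewer cells of a type and less RNA per cell cannot be told apart.

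Promoters from RefSeq (GRCm38.p6, from 250 bases before to 50 bases after the annotated start) were available for 7 of the 10 genes. The 4 printed here belong to the inducible HSP70 gene that rose, the HSP110 gene that rose, the HSP10 gene and the small heat shock gene. They show how differently exact matches to 2 or 3 units of the heat shock element are arranged. Each is given 5′ to 3′ on the strand of the gene, and capitals mark every match to GAANNTTC (2 units, head to head), TTCNNGAA (2 units, tail to tail), or the 3-unit runs GAANNTTCNNGAA and TTCNNGAANNTTC, which contain the shorter ones.
Hspa1b, chr17:34959189-34959488, minus strand: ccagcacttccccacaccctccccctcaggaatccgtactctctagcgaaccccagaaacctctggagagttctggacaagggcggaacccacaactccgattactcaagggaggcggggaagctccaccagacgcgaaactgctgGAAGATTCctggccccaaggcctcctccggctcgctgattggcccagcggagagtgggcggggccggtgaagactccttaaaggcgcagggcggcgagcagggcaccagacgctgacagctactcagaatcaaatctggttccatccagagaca
Hsph1, chr5:149636287-149636586, minus strand: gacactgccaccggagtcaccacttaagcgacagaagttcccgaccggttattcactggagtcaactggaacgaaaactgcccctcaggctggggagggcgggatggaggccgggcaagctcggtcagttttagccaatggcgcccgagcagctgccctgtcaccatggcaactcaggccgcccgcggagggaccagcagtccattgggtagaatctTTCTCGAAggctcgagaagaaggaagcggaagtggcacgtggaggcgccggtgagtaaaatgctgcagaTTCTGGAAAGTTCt
Hspe1, chr1:55087898-55088197, plus strand: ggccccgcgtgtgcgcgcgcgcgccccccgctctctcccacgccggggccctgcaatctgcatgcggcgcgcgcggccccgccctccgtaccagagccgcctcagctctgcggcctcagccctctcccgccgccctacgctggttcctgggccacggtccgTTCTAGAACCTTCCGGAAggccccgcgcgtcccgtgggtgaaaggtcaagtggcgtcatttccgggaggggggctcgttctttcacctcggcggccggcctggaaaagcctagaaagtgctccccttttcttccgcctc
Hspb1, chr5:135887669-135887968, plus strand: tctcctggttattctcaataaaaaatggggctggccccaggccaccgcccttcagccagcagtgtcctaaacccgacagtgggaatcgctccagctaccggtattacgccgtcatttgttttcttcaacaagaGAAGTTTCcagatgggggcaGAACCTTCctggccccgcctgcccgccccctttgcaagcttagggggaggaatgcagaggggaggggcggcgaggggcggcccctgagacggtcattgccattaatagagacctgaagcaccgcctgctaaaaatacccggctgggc

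The Hspa1b window held a single head-to-head pair, GAAGATTC, beginning 104 bases before the start. The Hspa1a window held the same pair at the same distance, and the windows of these neighbouring genes differed at 4 of 300 bases. Hsph1 had a tail-to-tail pair, TTCTCGAA, 33 bases before the start and a run of 3 units, TTCTGGAAAGTTC, downstream of it within the window. Hspe1 had overlapping runs of 3 units that began 89 and 84 bases before the start, and the same stretch lay, on the other strand, in a window of Hspd1, which is transcribed away from Hspe1. Hspb1 had head-to-head pairs at 117 and 97 bases before the start, and no Dnajb1 window had a match.

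All motifs were searched on both strands in 32851 promoters. The head-to-head pair occurred in 7.86% of them, the tail-to-tail pair in 8.52% and a run of 3 units in 0.603%. Of the 58 tested genes with a run of 3 units in a promoter, 7 were called higher (12.1%) and 3 lower, with a median log2 fold change of 0.077. Of the 746 tested genes with a head-to-head pair, 59 (7.91%) were called higher and 53 lower, and of the 859 with a tail-to-tail pair 65 (7.57%) were higher and 55 lower. Over all tested genes 6.71% were called higher and 7.28% lower, and the genes with either pair lay near these shares. A match is a description of the letters and not a binding site. Only exact matches were searched, so a window without a match, or with a single one, can hold imperfect units that are not marked. Of the heat shock genes with a run of 3 units, which are among the 58, Hsph1 was called higher, and Hspe1 and Hspd1 were not called.

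Hspa8 (ENSMUSG00000015656; chr9:40800984-40810087, plus strand, GRCm38) encodes HSC70, the HSP70 that cells make without stress and that also drives clathrin uncoating and chaperone-mediated autophagy. Its normalized counts were 20195, 19905 and 18716 in the GalNAc-siNC mice and 32762, 32488 and 31976 in the GalNAc-siRnf10 mice. The lowest GalNAc-siRnf10 mouse lay far above the highest GalNAc-siNC mouse, and the spread within each group was small. The means were 19605 ± 783 and 32409 ± 399, a log2 fold change of 0.73 (SE 0.0519; fold 95% interval 1.53 to 1.78) with an adjusted p of 3.45e-08 in edgeR's quasi-likelihood test. Hspa8 took 0.0634% to 0.0702% of all counts in the GalNAc-siNC mice and 0.107% to 0.108% in the GalNAc-siRnf10 mice. The 10 genes together took 0.251% to 0.262% and 0.297% to 0.299%. Of the 150-base windows along the Hspa8 transcripts, 23.02% also occur in other annotated genes, all of them gene models without a functional name, so some of its reads could have been assigned either way.

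Hspa1b (ENSMUSG00000090877; chr17:34956436-34959238, minus strand), a gene of a single exon, encodes an HSP70 that is nearly absent without stress and strongly induced by heat. It had 110.6, 214.5 and 191.7 normalized counts in the GalNAc-siNC mice and 302.9, 317.4 and 285.4 in the GalNAc-siRnf10 mice. The groups did not overlap, and GalNAc-siNC mouse 1 was the lowest of the 6. The means were 172.3 ± 54.6 and 301.9 ± 16.0, a log2 fold change of 0.82 (SE 0.197; fold 95% interval 1.31 to 2.38) with an adjusted p of 0.0166 in edgeR's quasi-likelihood test. Without GalNAc-siNC mouse 1 the log2 fold change was 0.57 with an edgeR adjusted p of 0.00125. Leaving out GalNAc-siRnf10 mouse 1, 2 or 3 ended the call (edgeR adjusted p of 0.0734, 0.0803 and 0.0558), with log2 fold changes between 0.78 and 0.86.

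Hspa1a (ENSMUSG00000091971; chr17:34969190-34972156, minus strand) is the neighbouring gene for an almost identical protein. It had 2, 6 and 1 raw counts in the GalNAc-siNC mice and 8, 12 and 11 in the GalNAc-siRnf10 mice. The groups did not overlap, but all values were at or near the limit of counting. Set against library size, the ratio of the summed counts (31 against 9) was 3.76, with an exact 95% interval of 1.75 to 8.97 that covers counting error only. Fitted without the filter, its log2 fold change was 1.84 (95% interval 0.242 to 3.44) with an edgeR adjusted p of 0.172. Without GalNAc-siNC mouse 2, the control with the most Hspa1a counts, it passed the filter and was called higher. Leaving out any other mouse gave no such call. Reads that match both genes were not separable: 45.95% of the 150-base windows of Hspa1a and 40.47% of those of Hspa1b occur in another annotated gene, and Hspa1a held 0.513% to 3.94% of the counts of the pair. With the counts of the pair summed, the log2 fold change was 0.84 (95% interval 0.407 to 1.28) with an edgeR adjusted p of 0.0155. Inducible HSP70 mRNA was scarce beside the constitutive form in both groups. The ratio of the pair to Hspa8 per kilobase was 0.0138 ± 0.00458 and 0.0148 ± 0.000659, with overlap between the groups (exact two-sided permutation p = 1.0), and the log2 difference turned from 0.164 to -0.15 without GalNAc-siNC mouse 1.

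Hsph1 (ENSMUSG00000029657; chr5:149614287-149636376, minus strand) encodes HSP105, an HSP110 protein that exchanges the nucleotide of HSP70. Its normalized counts were 1113, 1135 and 1121 in the GalNAc-siNC mice and 2048, 1911 and 1951 in the GalNAc-siRnf10 mice. The control mice lay close together, and all GalNAc-siRnf10 mice were well above them. The means were 1123 ± 11.1 and 1970 ± 70.4, a log2 fold change of 0.81 (SE 0.0694; fold 95% interval 1.58 to 1.94) with an adjusted p of 3.12e-07 in edgeR's quasi-likelihood test. None of its 150-base windows occurs in another annotated gene.

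Dnajb1 (ENSMUSG00000005483; chr8:83608193-83612653, plus strand) encodes HSP40, the J-domain protein that hands substrates to HSP70 and stimulates its ATPase. It had 502.3, 533.2 and 434.8 normalized counts in the GalNAc-siNC mice and 802.5, 773.5 and 869.0 in the GalNAc-siRnf10 mice. The groups were again apart, with similar spread in each. The means were 490.1 ± 50.4 and 815.0 ± 49.0, a log2 fold change of 0.73 (SE 0.0975; fold 95% interval 1.44 to 1.92) with an adjusted p of 5.35e-05 in edgeR's quasi-likelihood test. It shared no 150-base window with another gene. Hspa8, Hsph1 and Dnajb1 kept their calls under all alternatives tried except the limit of 1 on the absolute log2 fold change.

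The HSP70 partners Hsph1 and Dnajb1 kept nearly the same proportion to Hspa8 in both groups, a comparison chosen after the values were seen. Other HSP70 partners rose less than Hspa8, such as Dnaja1 (log2 fold change 0.41), or hardly differed, such as Hspa4 (0.00098). Per kilobase, there were 3.26 to 3.55 Hsph1 counts for each 100 Hspa8 counts in the GalNAc-siNC mice and 3.48 to 3.7 in the GalNAc-siRnf10 mice. For Dnajb1 there were 3.12 to 3.6 and 3.2 to 3.65. Both ranges overlapped between the groups. For Hsp90ab1 the numbers were 199 to 223 and 123 to 125, and for Hspd1 117 to 132 and 79.8 to 82.4, without overlap.

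**Figure D2:**
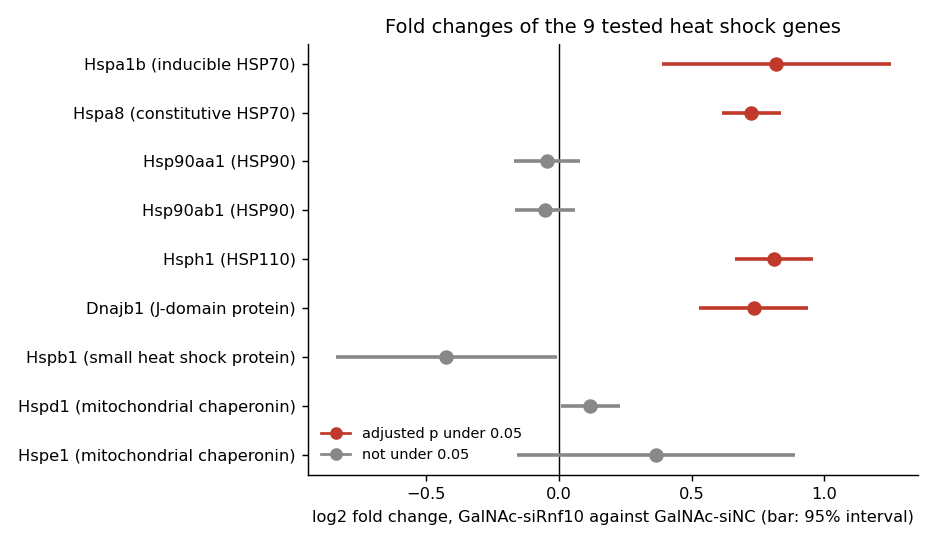
Fitted log2 fold change of GalNAc-siRnf10 against GalNAc-siNC (x axis) for the 9 tested heat shock genes, with bars for the 95% interval; red marks an adjusted p under 0.05. The 4 red genes lie between 0.73 and 0.82, the HSP90 genes lie at -0.046 and -0.054, and the wide bars belong to Hspa1b, Hspb1 and Hspe1.

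Hsp90ab1 (ENSMUSG00000023944; chr17:45567775-45573271, minus strand) encodes HSP90 beta, the constitutive cytosolic HSP90. Its normalized counts were 28023, 31006 and 28315 in the GalNAc-siNC mice and 28035, 28368 and 27730 in the GalNAc-siRnf10 mice. The groups overlapped, and only GalNAc-siNC mouse 2 was above the range of the others. The log2 fold change was -0.054 with a fold 95% interval of 0.89 to 1.04 (edgeR adjusted p = 0.574).

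Hsp90aa1 (ENSMUSG00000021270; chr12:110690605-110702728, minus strand) encodes HSP90 alpha, the heat-inducible isoform. It had 6520, 6052 and 5989 normalized counts in the GalNAc-siNC mice and 5993, 5846 and 6141 in the GalNAc-siRnf10 mice, which overlapped. The log2 fold change was -0.046, with a fold 95% interval of 0.888 to 1.06 (edgeR adjusted p = 0.674). The upper bounds of both HSP90 genes lay below the lower bounds of Hspa8, Hsph1 and Dnajb1. The ratio of the inducible to the constitutive isoform per kilobase was 0.163 ± 0.0143 in the GalNAc-siNC mice and 0.163 ± 0.00586 in the GalNAc-siRnf10 mice (exact two-sided permutation p = 0.9). Over 3 such ratios tested, all Benjamini-Hochberg adjusted p were 1.0. Since the test cannot go below 0.1 with these mice, its p does not show that the ratios are alike. Of the 150-base windows of Hsp90aa1, 28.45% occur in another annotated gene, and none of those of Hsp90ab1.

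Hspb1 (ENSMUSG00000004951; chr5:135887919-135889563, plus strand) encodes HSP27 (HSP25 in mouse), a small heat shock protein that binds unfolded proteins and actin. Its normalized counts were 327.3, 570.4 and 521.7 in the GalNAc-siNC mice and 333.4, 343.3 and 377.0 in the GalNAc-siRnf10 mice. The groups overlapped through GalNAc-siNC mouse 1 alone, which lay below all other mice. The means were 473.1 ± 129 and 351.2 ± 22.8, a log2 fold change of -0.43 (95% interval -0.841 to -0.009; edgeR adjusted p = 0.178). The call depended on that library and on the fit. Without GalNAc-siNC mouse 1 Hspb1 was called lower, at a log2 fold change of -0.64 (edgeR adjusted p = 1.1e-05), and with a correction for GC content and length at -0.49 (edgeR adjusted p = 0.00144). In DESeq2 it was not called (adjusted p = 0.0737). Of the 150-base windows of Hspb1, 39.13% occur in another annotated gene.

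Hspd1 (ENSMUSG00000025980; chr1:55077835-55088243, minus strand) encodes HSP60, the barrel of the mitochondrial chaperonin. It had 15134, 14304 and 15123 normalized counts in the GalNAc-siNC mice and 16263, 15923 and 16178 in the GalNAc-siRnf10 mice. The groups did not overlap, but the gap was small. The log2 fold change was 0.12 (95% interval 0.00794 to 0.228; edgeR adjusted p = 0.154), and without GalNAc-siNC mouse 1 it was 0.13 with an edgeR adjusted p of 0.026. With the correction for GC content and length it was 0.066 (edgeR adjusted p = 0.3).

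Hspe1 (ENSMUSG00000073676; chr1:55088132-55091307, plus strand) encodes HSP10, the lid of the same chaperonin. Its normalized counts were 2120, 3067 and 3661 in the GalNAc-siNC mice and 3705, 3811 and 3873 in the GalNAc-siRnf10 mice. The groups did not overlap, and the control mice were spread far more widely than the GalNAc-siRnf10 mice. The means were 2949 ± 777 and 3797 ± 85.0, a log2 fold change of 0.37 (95% interval -0.159 to 0.89; edgeR adjusted p = 0.341). It was 0.17 (edgeR adjusted p = 0.0339) without GalNAc-siNC mouse 1 and 0.55 (edgeR adjusted p = 0.0264) without GalNAc-siNC mouse 3. With the correction for GC content and length it was 0.22 (edgeR adjusted p = 0.508). The size of the difference in Hspe1 therefore varied with the control mice used.

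Hspd1 and Hspe1 lie head to head and share 112 exonic bases on opposite strands. The strand setting of the counting is not given in the sources used here, so reads over those bases could have gone to either gene or to neither. The ratio of Hspd1 to Hspe1 per kilobase was 2.96 ± 0.896 in the GalNAc-siNC mice, with 3.98 in mouse 1, and 2.37 ± 0.0683 in the GalNAc-siRnf10 mice (exact two-sided permutation p = 0.4). In all, 5 named Hspd1 pseudogenes held 155 to 229 raw counts a library, and 6 of Hspe1 held 0 or 1. Of the 150-base windows, 16.08% of those of Hspd1 and 6.642% of those of Hspe1 occur in another annotated gene, and how reads in them were assigned is not known here.

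**Figure D3:**
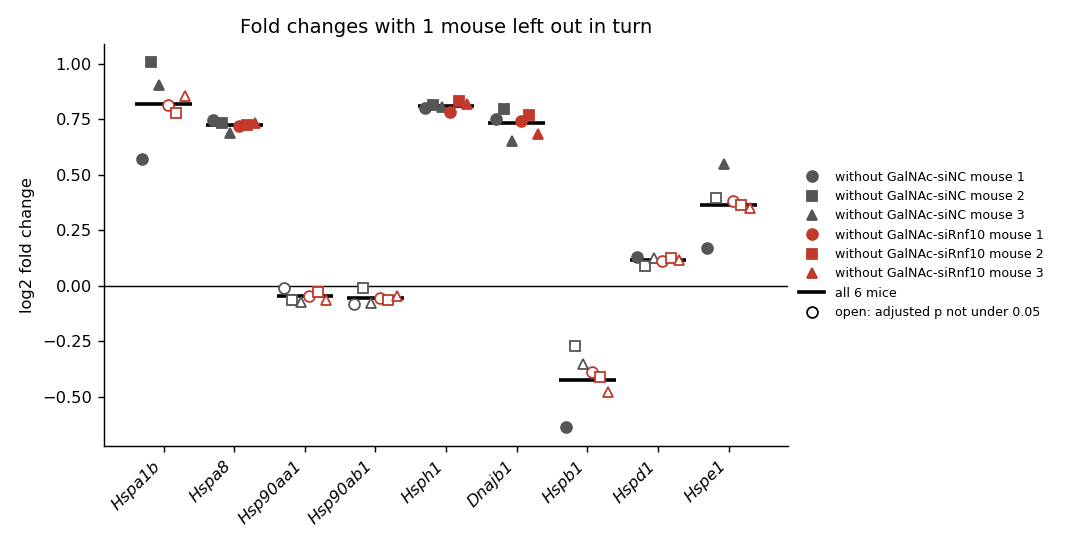
Log2 fold change of each tested heat shock gene (y axis) with 1 mouse left out in turn; the shape and color give the mouse left out, open points have an adjusted p not under 0.05, and black bars give the value from all 6 mice. Points are tightly grouped for Hspa8 (0.69 to 0.75) and Hsph1 (0.78 to 0.83), and GalNAc-siNC mouse 1 moves Hspa1b, Hspb1 and Hspe1 most.

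Levels between genes were compared per kilobase of gene model, in TMM-normalized CPM per kilobase, where CPM is the count scaled to a common library total. In the GalNAc-siNC mice Hsp90ab1 was the most abundant of the 10 at 327 ± 18.5, followed by Hspd1 at 190 ± 6.07 and Hspa8 at 154 ± 6.14. Hspe1 was at 67.4 ± 17.8 and Hsp90aa1 at 53.1 ± 2.49, and these neighbours overlapped. Hspb1 followed at 15.5 ± 4.2. The level then dropped to Hsph1 at 5.21 ± 0.0514 and Dnajb1 at 5.16 ± 0.53, which overlapped too. Hspa1b was at 2.07 ± 0.657, and Hspa1a, at 0.0338 ± 0.0319, was close to undetected.

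After GalNAc-siRnf10 the order of levels per kilobase changed at a single place. Hspa8 reached 254 ± 3.12 CPM per kilobase and stood above Hspd1 at 206 ± 2.26, with no overlap between these genes in either group. Hsp90ab1 stayed first at 315 ± 3.58, and Hspe1 (86.8 ± 1.94), Hsp90aa1 (51.4 ± 1.26) and Hspb1 (11.5 ± 0.747) kept their places. Hsph1 was at 9.14 ± 0.326 and Dnajb1 at 8.57 ± 0.515 CPM per kilobase, the only neighbours that overlapped in this group. Hspa1b was at 3.63 ± 0.193 and Hspa1a at 0.122 ± 0.0168.

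**Figure D4:**
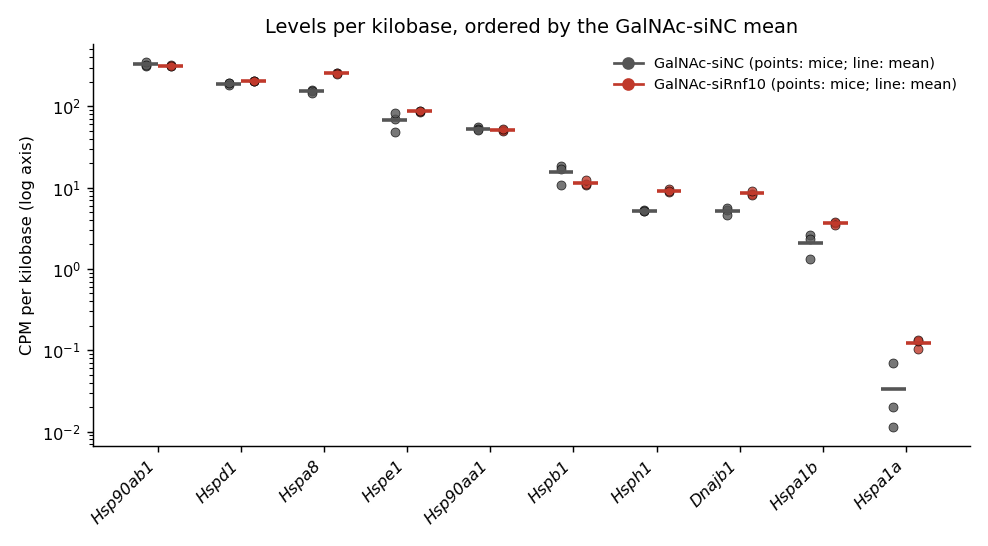
Level of the 10 heat shock genes in CPM per kilobase (log y axis), ordered by the GalNAc-siNC mean; points are mice and lines group means. Levels run from 327 for Hsp90ab1 to 0.0338 for Hspa1a in the GalNAc-siNC mice, and Hspa8 passes Hspd1 after GalNAc-siRnf10.

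The genes that act on or with these chaperones were described from lists of their families. Of the 4 tested genes around heat shock factors, 1 was called higher, beside 6.71% of all tested genes. The list median log2 fold change was 0.22. Hsf1, the factor that induces the family, had 383.9, 388.8 and 435.7 normalized counts in the GalNAc-siNC mice and 340.2, 439.8 and 411.1 in the GalNAc-siRnf10 mice, which overlapped. Its log2 fold change was -0.018 (edgeR adjusted p = 0.942), and its sign changed between alternatives. Hsf2, a factor that pairs with HSF1, was at 705.6 ± 10.5 and 829.5 ± 21.2 without overlap (log2 fold change 0.23; edgeR adjusted p = 0.0641), and was called higher with the correction for GC content and length (0.24; edgeR adjusted p = 0.0441). Hsbp1, which encodes a protein that binds HSF1 and restrains it, rose by 0.26 on the log2 scale (edgeR adjusted p = 0.037). That call was lost without any 1 of the GalNAc-siRnf10 mice and with the correction for GC content and length (edgeR adjusted p up to 0.188).

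Of 11 other cytosolic and nuclear J-domain genes, 5 were called higher and 0 lower, beside 6.71% and 7.28% of all tested genes. The list median log2 fold change was 0.081. Dnaja1 encodes a partner of HSC70 and had the most counts of the list, not corrected for length. Its normalized counts were 6360, 6176 and 6754 in the GalNAc-siNC mice and 8580, 8307 and 8764 in the GalNAc-siRnf10 mice. All GalNAc-siRnf10 mice were above all controls, at a log2 fold change of 0.41 (edgeR adjusted p = 9.6e-05). Dnajb4, a close relative of Dnajb1, rose by 0.45 on the log2 scale (edgeR adjusted p = 0.0013). The others called were Dnajc7 (log2 fold change 0.30), Dnaja2 (0.25) and, named after its values were seen, Dnajb6 (0.25). Dnaja2 and Dnajb6 lost their calls without any 1 of the GalNAc-siRnf10 mice (edgeR adjusted p of 0.053 to 0.114), and Dnajc7 also without GalNAc-siNC mouse 2 or 3 (edgeR adjusted p of 0.0666 to 0.133 in all 5 cases).

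Among 15 further HSP70 and HSP110 proteins and cofactors, 2 were called higher and 0 lower, a share near the background of 14.0% called in either direction, and the list median log2 fold change was 0.056. Bag3, a nucleotide exchange factor that links HSP70 to autophagy, rose by 0.32 on the log2 scale (edgeR adjusted p = 0.022). Hspa2, an HSP70 best known from testis and named after its values were seen, was at 35.72 ± 6.59 and 62.53 ± 8.64 normalized counts (log2 fold change 0.81; edgeR adjusted p = 0.0401). Bag3 lost its call without GalNAc-siNC mouse 3 or any 1 of the GalNAc-siRnf10 mice (edgeR adjusted p of 0.0754 to 0.116), and Hspa2 lost its call in the same fits, where 0 of the 15 were called higher, and also with DESeq2 and with the replicate block, where 1 was. Without GalNAc-siNC mouse 1, 1 gene of the list was called lower, beside 1469 of all tested genes. Of the other HSP70 and HSP110 genes, Hspa4, Hspa4l and Hspa14, named after their values were seen, had log2 fold changes of 0.00098, -0.072 and -0.041 and were not called.

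HSP90 works with co-chaperones that load, hold and release its clients. Of 14 tested, 4 were called higher and 0 lower, beside 6.71% and 7.28% of all tested genes. The list median log2 fold change was 0.18. Fkbp5, an immunophilin of steroid receptor complexes and a well-known glucocorticoid-induced gene, had 984.5, 1116 and 1117 normalized counts in the GalNAc-siNC mice and 1779, 1739 and 1757 in the GalNAc-siRnf10 mice (log2 fold change 0.71; edgeR adjusted p = 3.63e-06). Chordc1, which binds the HSP90 ATPase domain, had 800.0, 687.9 and 845.8 against 1256, 1103 and 1195 normalized counts (log2 fold change 0.60; edgeR adjusted p = 0.000171). Neither gene's groups overlapped. Without GalNAc-siNC mouse 1, 5 of the 14 were called higher and 1 lower, in a fit that called 1395 of all tested genes higher and 1469 lower. Cacybp (log2 fold change 0.30) and the cyclophilin gene Ppid (0.28) were also called. Cacybp lost its call without GalNAc-siNC mouse 2 or 3, without any 1 of the GalNAc-siRnf10 mice and with the correction for GC content and length (edgeR adjusted p of 0.0547 to 0.13), and Ppid without GalNAc-siNC mouse 2 or 3 or GalNAc-siRnf10 mouse 1 or 3 (0.0626 to 0.193).

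Other small heat shock genes were called in neither direction, although 1 was called lower without GalNAc-siNC mouse 1, beside 1469 of all tested genes. Of 7, only 3 were tested (Hspb6, Hspb8 and Cryab), and the other 4 had at most 3 counts in any mouse. Their median log2 fold change was -0.19, and Cryab, the alpha-B crystallin gene, was at 76.3 ± 21.6 and 54.14 ± 4.82 normalized counts (edgeR adjusted p = 0.208).

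In mitochondria, 1 of 15 other chaperone and protease genes was called higher and 1 lower, shares near those of all tested genes (6.71% and 7.28%), with a median log2 fold change of 0.098. Dnajc19, a J-domain gene of the inner membrane, rose by 0.43 on the log2 scale (edgeR adjusted p = 0.00644). Grpel2, a nucleotide exchange factor of mitochondrial HSP70, fell by 0.36 on the log2 scale (edgeR adjusted p = 0.00757). Dnajc19 lost its call without GalNAc-siRnf10 mouse 1 and with the correction for GC content and length, and Grpel2 without GalNAc-siRnf10 mouse 1 or 2 (edgeR adjusted p of 0.0503 to 0.0724). With that correction 4 genes of this list were called higher, and without GalNAc-siNC mouse 1 there were 2. The cytosolic chaperonin TRiC and prefoldin fold actin and tubulin. Of 14 of their subunits, 2 were called higher and 0 lower, beside 6.71% and 7.28% of all tested genes. The 2 were Pfdn2 at a log2 fold change of 0.33 and Cct4 at 0.25, and the list median was 0.092. Without GalNAc-siNC mouse 1, 3 were called higher, again beside 1395 of all tested genes. Both calls were lost without any 1 of the GalNAc-siRnf10 mice (edgeR adjusted p of 0.0649 to 0.127).

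The same families also have members in the endoplasmic reticulum (ER). Of 8 genes, 0 were called higher and 3 lower, beside 6.71% and 7.28% of all tested genes, and the list median log2 fold change was -0.20. In 7 the values were lower without overlap between the groups, beside 16.4% of all tested genes. Dnajb9 was at a log2 fold change of 0.092 with overlap. Dnajb11, the J-domain partner of BiP, had 3716, 4076 and 4206 normalized counts in the GalNAc-siNC mice and 3182, 2956 and 3018 in the GalNAc-siRnf10 mice (log2 fold change -0.39; edgeR adjusted p = 0.000656). Hyou1, the HSP110 of the ER, fell by 0.36 on the log2 scale (edgeR adjusted p = 0.00156). Hsp90b1, the HSP90 of the ER (GRP94), fell by 0.28 on the log2 scale (edgeR adjusted p = 0.00584). Hspa5, which encodes BiP and was named after its values were seen, was at 21329 ± 910 and 19485 ± 260 (log2 fold change -0.13; edgeR adjusted p = 0.116). Without GalNAc-siRnf10 mouse 2 Hsp90b1 lost its call (edgeR adjusted p = 0.0508). With the correction for GC content and length, 7 of the 8 were called lower. The cytosolic HSP110 gene Hsph1 and J-domain gene Dnajb1 were thus called higher, and the ER relatives Hyou1 and Dnajb11 lower. This contrast did not extend to the whole families. The HSP110 genes Hspa4 and Hspa4l and 6 of the 11 other cytosolic and nuclear J-domain genes were not called. Neither were the ER J-domain genes Dnajb9, Dnajc3 and Dnajc10. The difference between the lists was not itself tested.

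**Figure D5:**
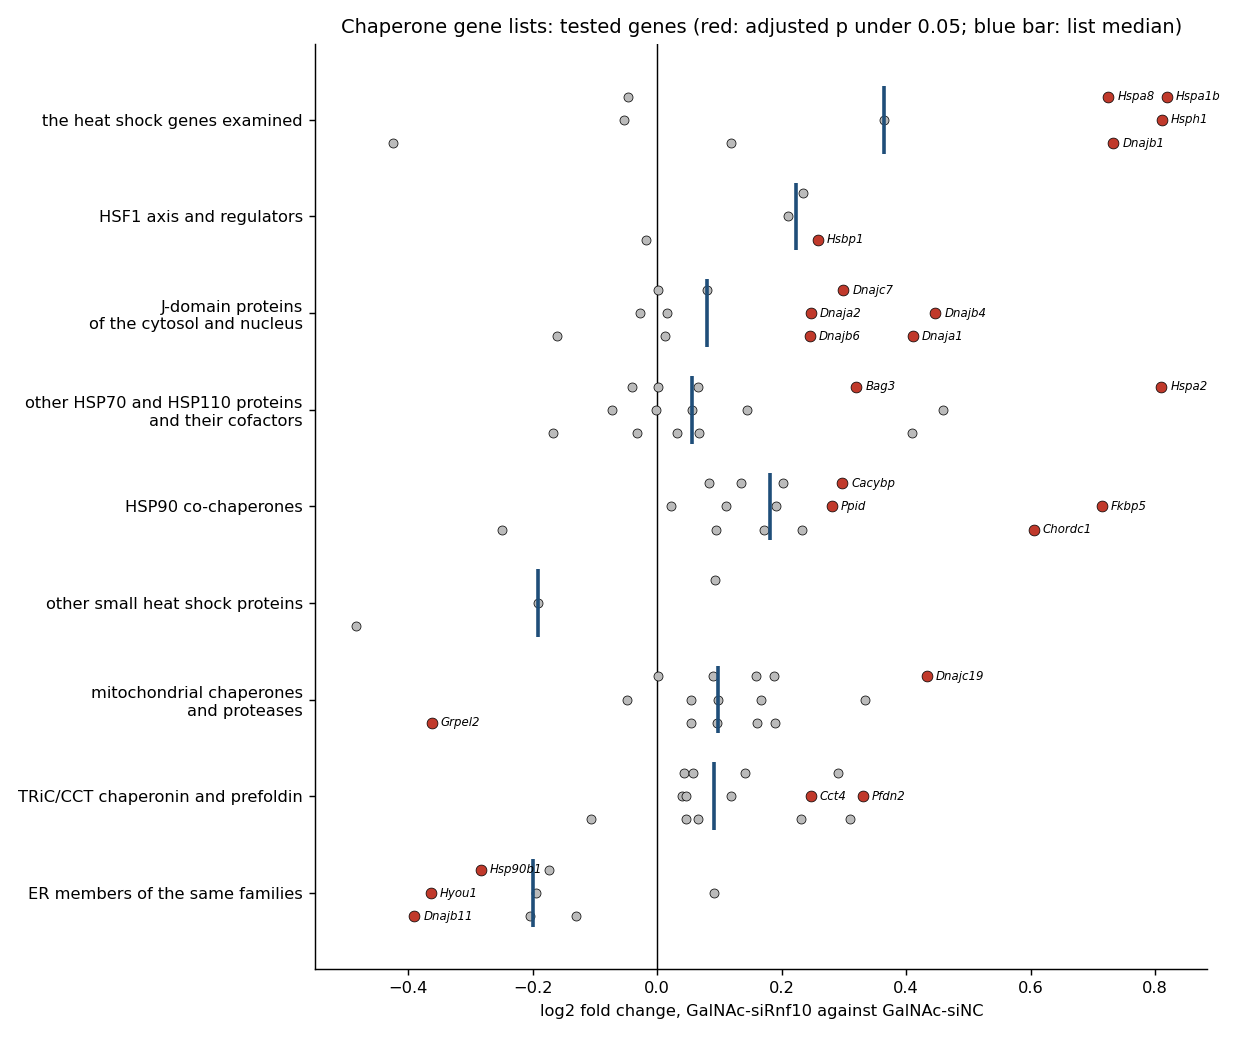
Log2 fold change of GalNAc-siRnf10 against GalNAc-siNC (x axis) for each tested gene of the chaperone lists (y axis; points within a list are spread vertically for legibility), with genes at an adjusted p under 0.05 in red and named, and blue bars for list medians. The median is 0.37 for the heat shock genes, between 0.056 and 0.22 for the lists of heat shock factors, J-domain proteins, cofactors, co-chaperones, mitochondrial chaperones and TRiC, -0.19 for the 3 other small heat shock genes tested, and -0.20 for the ER relatives.

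Other values moved together with the heat shock genes. The hour of collection is not in the labels. Of 15 tested clock genes, 5 were called higher (Per1, Ciart, Cry1 and, named after their values were seen, Per2 and Per3) and 1 lower (Nr1d1). Over all tested genes 6.71% were called higher and 7.28% lower. Without GalNAc-siNC mouse 1 there were 6 clock genes higher and 2 lower, in a fit that called 1395 of all tested genes higher and 1469 lower. Per1 was at 350.9 ± 18.8 and 1171 ± 62.9 normalized counts. The cold-inducible genes Cirbp and Rbm3, whose transcripts fall with warmer body temperature, were at 526.2 ± 131 against 381.6 ± 42.4 and 784.6 ± 32.7 against 701.9 ± 27.7 normalized counts, and neither passed the test (edgeR adjusted p of 0.123 and 0.234), although 1 of them was called lower with DESeq2, with voom, without the filter, without GalNAc-siNC mouse 1 and with the GC and length correction and the replicate block. Of 6 hepatocyte markers 4 were called higher, and their summed level ranged from 53382 to 56260 CPM in the GalNAc-siNC mice and from 79653 to 82499 in the GalNAc-siRnf10 mice. The summed level of 5 Kupffer cell markers was 139 to 161 and 150 to 156 CPM with 0 called, and that of 5 cholangiocyte markers 68.5 to 69.9 and 37.8 to 38.9 with 1 called lower. Of 5 markers each, 2 of the sinusoidal endothelium (56.6 to 56.8 against 58.7 to 62.2 CPM) and 2 of stellate cells (86.0 to 88.1 against 102 to 103 CPM) were called higher. Lymphocyte markers summed to at most 1.26 CPM and erythroid markers to 243 to 311 against 276 to 305 CPM, with 0 called. Neutrophil markers summed to 0.998 to 2.26 against 0.574 to 0.724 CPM, and the 1 tested was called lower, while pancreatic markers summed to 15.1 to 22.4 against 28.2 to 30.8 CPM, and the 1 tested was called higher. Skeletal muscle and adipose markers were at or near 0, and hepatocyte markers were by far the most abundant, as the labelled tissue would have. The part of the clock genes and of these markers in the differences between the heat shock genes was not tested.

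The tested genes outside the family whose pattern over the 6 mice was most like the mean profile of the 9 heat shock genes were Uqcc1, Tk1, Vdac1, Slc5a3 and Acsm1. Their Pearson correlation with that profile was 0.997, 0.996, 0.995, 0.994 and 0.994 on the log2 CPM scale, a description over 6 mice that form 2 groups and share the treatment difference. Their log2 fold changes were 0.28, 0.59, 0.25, 0.48 and 0.11. Within the family Hspa1b had the highest correlation with the mean profile (0.949) and Hsp90aa1 the lowest (-0.623). The profile includes the gene compared, and each gene was scaled to the same spread, however small its differences. In Hsp90aa1 the groups overlapped (log2 fold change -0.046; edgeR adjusted p = 0.674).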

How the data were processed

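Liver RNA-seq of 6 mice was used, 3 per group by the labels. The authors sequenced paired-end reads of 150 bases from stranded mRNA libraries, used HISAT2 (version not given) with GRCm38, and deposited gene counts that had not been normalized. The counting tool and strand setting are not given in the sources used here. The deposited table also held the gene model length in bases, another value, used for levels per kilobase. The libraries held 26854377 to 33058645 counts. The 3-count floor (9.07e-06% to 1.12e-05% of a library) and the exact interval of the Hspa1a count ratio cover counting error only. The intervals of the fitted fold changes also include the spread between mice.

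Differences were fitted with edgeR 4.0.16 under R 4.3.3 (filterByExpr with a minimum count of 10, TMM, robust quasi-likelihood F-test, Benjamini-Hochberg over all 14046 tested genes, called at an adjusted p under 0.05), with group as the only term. The common biological coefficient of variation was 9.28%. Symbols and coordinates came from GENCODE M21, with 346 identifiers lacking a symbol. Permutation tests, motif searches and figures used Python 3.11.15, scipy 1.17.1, numpy 2.4.6, pandas 2.3.3 and matplotlib 3.10.9.

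The genes and lists were chosen with earlier results of these data known. Named were Rnf10, the 10 genes, Hsf1, Hsf2, of each list up to 4 called genes with the largest fold change, if their normalized counts averaged 50 or more, and the 5 genes most like the mean profile. Cell type markers were given as counts and summed levels. In simulated data, 144 of 200 genes changed by 0.8 on the log2 scale were recovered (72%) among 13976 tested genes, with 24 false calls. The false calls were a larger share of the calls than the limit of 0.05. With no gene changed, 0 were called. The simulation gave both groups the same spread and changed 200 genes, whereas the GalNAc-siNC mice varied more and 1965 genes were called in the data. Its rates therefore need not hold for these data. Alternatives were RLE and upper quartile scaling, no filter, 10 counts in every mouse, DESeq2 1.42.0, voom with quality weights in limma 3.58.1, a replicate block, thresholds of 0.01 and of 1 on the absolute log2 fold change, summing Hspa1a with Hspa1b, a pseudocount of 0.5 in the ratios, and each mouse left out. A spline correction (5 degrees of freedom) for GC content and length, alone and with the block, was added after seeing the data.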

Additional observations from a re-analysis of the deposited data

How the results depend on the processing

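Hspa8, Hsph1 and Dnajb1 kept direction and call under every alternative but the limit of 1 on the absolute log2 fold change, with ranges of 0.69 to 0.75, 0.78 to 0.84 and 0.65 to 0.79. At that limit 0 heat shock genes were called higher, beside 134 of all genes higher and 93 lower, and at an adjusted p under 0.01 the table gave 502 higher and 540 lower. With 1 mouse left out, 520 to 1395 genes were called higher and 533 to 1469 lower, and 3 to 6 heat shock genes were called higher and 0 to 1 lower. Leaving out a GalNAc-siRnf10 mouse gave the fewest higher calls over all genes, 520 to 547, beside 943 with all 6 mice. The 1 called lower was Hspb1, also without the filter (log2 fold change -0.43, adjusted p 0.00355), with voom (-0.49, adjusted p 0.0123), and with the GC and length correction (1 gene) alone or with the replicate block (1 gene). The numbers of the mice did not pair them (correlations of -0.000993, 0.0272 and -0.0337 for same-numbered mice). With the replicate number as a block, 895 genes were called higher and 921 lower, and 4 heat shock genes were higher and 0 lower; with the correction and the block, 1243 and 1176 genes were called, and again 4 heat shock genes were higher. Hsf1 ranged from -0.099 to 0.080 with 1 mouse left out, turned positive without GalNAc-siNC mouse 3 (0.038) or GalNAc-siRnf10 mouse 1 and with the correction alone (0.11) or with the replicate block (0.11), and was called in none. The log2 difference of the Hsp90aa1 to Hsp90ab1 ratio ranged from -0.0541 to 0.0726 with 1 mouse left out, that of Hspa1a plus Hspa1b to Hspa8 from -0.15 to 0.348 (negative without GalNAc-siNC mouse 1), and that of Hspd1 to Hspe1 from -0.442 to -0.0475. The cause of these changes was not tested. With all 6 mice Hspa1a was too low in counts to be tested with the filter. Without GalNAc-siNC mouse 2 it passed the filter. The 5 heat shock genes called higher in that fit were Hspa1a, Hspa1b, Hspa8, Hsph1 and Dnajb1.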
